A study of Mus musculus with 32 samples.

Results

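The data described here are from glioma cells that were made with HRAS, with or without added Bmi1. They comprise 7 of the 32 expression arrays of the study, chosen by their titles: 2 arrays of HRAS+Bmi1 cells and 5 arrays of HRAS cells. All 7 came from mice of strain B6;129-Trp53tm1Brd, so the controls were p53-deficient too. Neurosphere cells grown from the wall of the lateral ventricle of postnatal mice had been given HRAS, or HRAS and Bmi1, and transplanted into the brain. The gliomas that grew were dissociated, cells that still carried the transgene cassette were sorted by flow cytometry, and these were grown again as neurospheres, floating colonies of neural stem and progenitor cells, before RNA was taken. The labels do not say whether replicates came from separate tumours, animals or cultures, nor which promoter drove the transgenes. The spread between arrays may therefore be partly technical. If both HRAS+Bmi1 arrays came from the same tumour or culture, added Bmi1 and other traits of that tumour or culture cannot be told apart. Expression was read as log2 values on Affymetrix Mouse Gene 1.0 ST arrays, 1 probe set for each of 19938 genes. In bulk RNA, fewer cells of a type and less RNA per cell cannot be told apart.

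Bmi1 is a subunit of Polycomb repressive complex 1 (PRC1), which ubiquitinates histone H2A and keeps target genes silent, often at sites where Polycomb repressive complex 2 (PRC2) has methylated histone H3. Its best known target in neural stem cells is the Cdkn2a locus, which encodes the cell cycle inhibitor Ink4a and the p53 activator Arf. HRAS is a small GTPase that drives the MAP kinase cascade, and strong RAS signalling is itself known to raise Cdkn2a. These cells were deficient in p53, the protein through which Arf acts.

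Vim and Sox2 were high in all 7 arrays, Gfap and S100b were low, and Olig2 varied between the HRAS arrays. These markers were named after their values were seen. Vim, an intermediate filament of glial progenitors, lay between 13.51 and 13.86 in every array, and the stem cell factor Sox2 lay between 10.52 and 11.92. Gfap and S100b, classical astrocyte markers, stood near the low end of the scale, Gfap at 5.88 and 6.34 in HRAS+Bmi1 and between 4.92 and 5.21 in HRAS, and S100b between 5.05 and 5.55 in all 7. Olig2, a factor of the oligodendrocyte lineage and of many gliomas, read 6.96 and 7.09 in HRAS+Bmi1 and 6.51, 4.95, 8.94, 4.70 and 4.37 in HRAS replicates 1 to 5. Markers of blood-derived and vessel cells were low. Array medians lay between 5.59 and 5.79 over all probe sets in the whole study, and between 6.25 and 6.41 over the genes tested in these 7 arrays. In HRAS+Bmi1 15 of 16 microglial, 15 of 17 endothelial and all 16 ependymal or choroid plexus genes had a mean below 6, and in HRAS 14 of 16, 14 of 17 and 14 of 16 did.

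The 2 HRAS+Bmi1 arrays were nearly alike, with a Pearson correlation of 0.994 across genes, while pairs of HRAS arrays ranged from 0.961 to 0.988. HRAS replicate 3 stood apart from its group. It was the HRAS array most like HRAS+Bmi1, with correlations of 0.971 and 0.973, and its correlations with the other HRAS arrays ran from 0.961 to 0.970. HRAS replicates 1 and 2 had the highest Myc, at 11.88 and 12.85 against 10.92, 10.44 and 10.71 in replicates 3 to 5 and 10.38 and 10.87 in HRAS+Bmi1. Results below are therefore also given without single arrays where that changes a call.

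The first comparison asked whether Bmi1 itself was higher where it had been added. It was, by 0.89 log2 units or 1.86-fold, but the groups overlapped. The Bmi1 level was 10.70 and 10.06 in the HRAS+Bmi1 arrays and 9.46, 9.07, 10.23, 9.29 and 9.37 in HRAS replicates 1 to 5. HRAS replicate 3 thus lay between the HRAS+Bmi1 arrays. The standard error was 0.225 and the adjusted p 0.0152 (limma, Benjamini-Hochberg over all genes). Without HRAS+Bmi1 replicate 1 the difference was 0.58 with an adjusted p of 0.520, and in a fit to these 7 arrays alone the adjusted p was 0.199. The sources used here do not say which sequence the transgene carried, so the probe set may read the endogenous gene, the added copy or both. Across the study's 8 groups the HRAS+Bmi1 mean of 10.38 ± 0.447 (SD, n = 2) was followed by MYC+Bmi1 at 10.13 ± 0.113 (SD, n = 3), the cells given HRAS first and MYC later at 9.97 ± 0.219 (SD, n = 2) and MYC at 9.89 ± 0.174 (SD, n = 6). The lowest were HRAS at 9.48 ± 0.443 (SD, n = 5) and HRAS+MYC at 9.36 ± 0.278 (SD, n = 7), and neighbours in this order over all 8 groups differed by less than the larger of their SDs. HRAS+Bmi1 and MYC+Bmi1 nevertheless differed by more than the SD of MYC+Bmi1.

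Among the partners of Bmi1, calls were made in each Polycomb complex. Of 24 measured PRC1 genes, Bmi1 alone passed as higher and Scmh1, a Polycomb-associated scaffold protein, alone passed as lower, against 2.87% and 3.04% of all genes. Scmh1 read 6.03 and 6.37 in HRAS+Bmi1 and 6.91 to 7.33 in HRAS, a difference of -0.90 (SE 0.225). Pcgf2, the closest relative of Bmi1 in PRC1, differed by -0.36 with an adjusted p of 0.253. The median difference of the PRC1 genes was -0.02, and that of all genes -0.01.

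In PRC2 the 2 alternative methyltransferases moved in opposite directions. Ezh2, the form of dividing cells, was at 10.90 and 10.67 in HRAS+Bmi1 and between 9.72 and 10.52 in HRAS, and rose by 0.70. Ezh1, the form of resting and differentiated cells, was at 6.90 and 6.93 against 7.93, 8.25, 7.74, 9.04 and 8.54, and fell by 1.38. Phf1, an accessory subunit that binds methylated histone H3, fell by 0.88, from 7.22 to 8.19 in HRAS to 6.76 and 6.73. The arrays of the groups did not overlap for these 3 genes, nor for 11.0% (higher) and 11.7% (lower) of all genes. The other 10 of 13 PRC2 genes did not pass (5.91% of all genes did). The Ezh2 call had an adjusted p of 0.0491 and was lost without HRAS replicate 1, 2 or 4 or either HRAS+Bmi1 array (0.0741 to 0.497), the Ezh1 call was lost without HRAS+Bmi1 replicate 1 (0.0617) and the Scmh1 call without either HRAS+Bmi1 array (0.348 and 0.0657). The Phf1 call held in all 7 fits that left out 1 array.

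Cdkn2a, the textbook target of Bmi1, was lower with Bmi1 but remained well expressed. Its level was 9.70 and 10.01 in HRAS+Bmi1 and 10.81, 11.10, 10.43, 10.55 and 11.16 in HRAS, a fall of 0.95 (SE 0.212, adjusted p = 0.0063, 1.94-fold) with no overlap. The probe set does not separate Ink4a from Arf, and without HRAS+Bmi1 replicate 1 the adjusted p was 0.230. The Cdkn2a mean of 9.86 ± 0.216 (SD, n = 2) in HRAS+Bmi1 lay between that of MYC cells, 8.97 ± 0.304 (SD, n = 6), and that of HRAS cells, 10.81 ± 0.321 (SD, n = 5). Cdkn2a lies in a stretch of chromosome 4 that was low as a whole in HRAS+Bmi1, as given further on.

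The other CDK inhibitors did not pass. Cdkn2b, the neighbour of Cdkn2a that encodes Ink4b, read 10.12 and 10.65 in HRAS+Bmi1 and 11.02, 11.31, 9.61, 9.40 and 9.64 in HRAS, a difference of 0.19 whose sign changed without HRAS replicate 4 (-0.01) or HRAS+Bmi1 replicate 2 (-0.07). HRAS replicates 1 and 2, the arrays with the highest Myc, were above HRAS+Bmi1 for Cdkn2b and the other 3 were below. Cdkn2c differed by 0.51, Cdkn1b by 0.44 and Cdkn1c by 0.33, and Cdkn2d by -0.37, with adjusted p between 0.410 and 0.908 for these 5 genes. The sign for Cdkn1c changed without HRAS replicate 3 (-0.07).

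**Figure D1:**
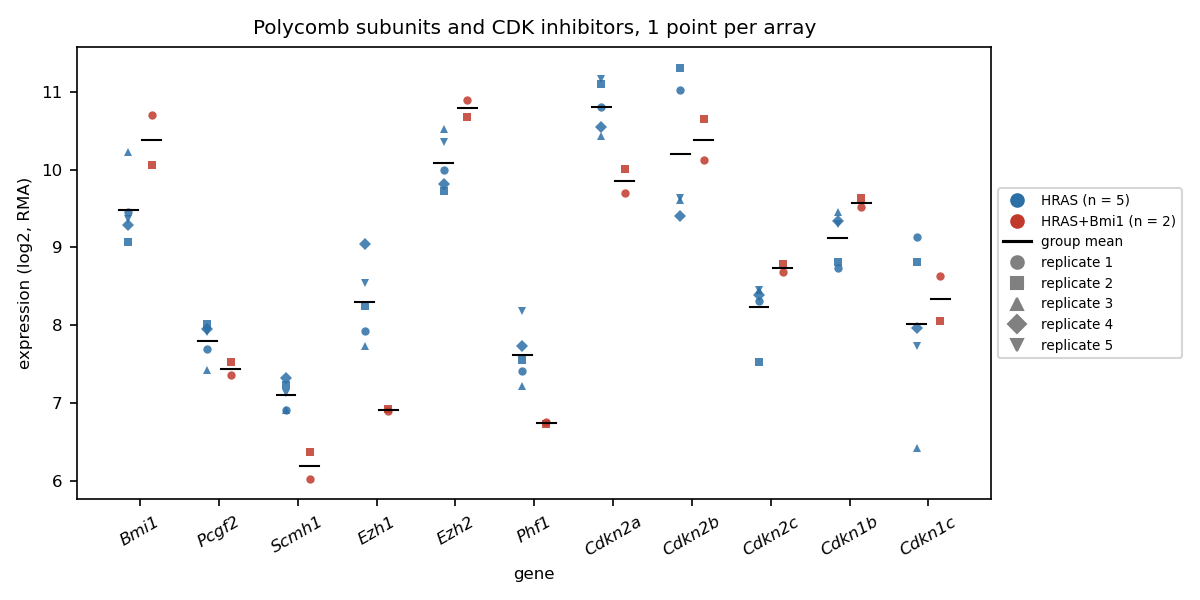
Log2 expression of Polycomb subunits and CDK inhibitors, 1 point per array, with HRAS in blue, HRAS+Bmi1 in red, marker shapes for replicate numbers and a bar at each group mean. The Bmi1 points of the groups overlap through HRAS replicate 3 at 10.23, while Ezh1, Phf1, Scmh1 and Cdkn2a lie lower in both HRAS+Bmi1 arrays than in any HRAS array.

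Polycomb complexes commonly hold Hox genes and other developmental factors silent. None of 37 Hox genes passed with limma, and none had an unadjusted p under 0.05 either (1817 higher and 1807 lower of all 19938 genes did). Their mean level was 4.99 to 5.03 in HRAS+Bmi1 and 4.91 to 5.14 in HRAS. Of 76 other developmental transcription factors 2 rose and 3 fell, close to the 2.87% and 3.04% of all genes. Zic1 and Zic4, zinc finger factors of the dorsal neural tube, rose by 3.53 and 0.63. Lhx9, Pax9 and Six3, factors of forebrain, pharyngeal and eye development, fell by 1.98, 1.67 and 1.13. Zic2 and Zic5, which neighbour each other on chromosome 14 and were not in the list, were at 8.53 to 8.74 and 8.29 to 8.35 in HRAS+Bmi1 and at 5.03 to 5.97 and 4.71 to 6.30 in HRAS, so all 4 Zic genes measured rose. Zic4, however, was at 5.43 and 5.40 against 4.58 to 4.95, below the array medians over all probe sets in every array, and detection was not assessed. Lhx9 was at 5.01 and 4.96 in HRAS+Bmi1 and at 8.73, 8.38, 6.78, 5.36 and 5.58 in HRAS. Its call and all 4 Zic calls were lost without either HRAS+Bmi1 array, that of Zic4 also without HRAS replicate 1, 2 or 5 (adjusted p = 0.0642, 0.0792 and 0.0505). The Pax9 and Six3 calls held without any single array.

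The sequences before the start sites of Bmi1 and of both Cdkn2a transcripts are given because these are the added gene and its known target. They are from RefSeq on GRCm38.p6, each the 250 bases 5′ of a start, written 5′ to 3′ on the gene's strand, with every CG dinucleotide in capitals. Bmi1 lies on the plus strand at chr2:18676768-18677017, and Cdkn2a on the minus strand with the Arf start after chr4:89294620-89294869 and the Ink4a start after chr4:89282193-89282442.
Bmi1: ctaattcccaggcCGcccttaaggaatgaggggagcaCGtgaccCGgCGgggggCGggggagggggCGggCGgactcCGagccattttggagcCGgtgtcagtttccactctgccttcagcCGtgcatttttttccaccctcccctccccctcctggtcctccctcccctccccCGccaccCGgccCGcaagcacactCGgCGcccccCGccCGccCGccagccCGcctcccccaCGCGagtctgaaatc
Cdkn2a, Arf start: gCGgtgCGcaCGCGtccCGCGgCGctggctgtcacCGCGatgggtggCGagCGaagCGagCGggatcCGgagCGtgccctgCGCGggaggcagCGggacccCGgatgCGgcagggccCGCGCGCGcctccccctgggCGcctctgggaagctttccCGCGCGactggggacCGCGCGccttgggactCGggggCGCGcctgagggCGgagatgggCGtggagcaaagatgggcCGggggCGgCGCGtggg
Cdkn2a, Ink4a start: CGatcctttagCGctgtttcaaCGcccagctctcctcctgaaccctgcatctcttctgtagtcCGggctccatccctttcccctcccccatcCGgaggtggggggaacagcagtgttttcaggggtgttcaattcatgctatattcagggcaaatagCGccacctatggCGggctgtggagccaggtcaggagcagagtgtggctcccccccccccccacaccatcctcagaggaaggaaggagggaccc
The Arf window holds 40 CG dinucleotides, the Bmi1 window 21 and the Ink4a window 7.

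Across all genes, 1178 of 19938 passed between HRAS+Bmi1 and HRAS (5.91%), 572 higher (2.87%) and 606 lower (3.04%). Of these, 354 rose and 326 fell by at least 1 log2 unit, and 114 rose and 60 fell by at least 2. The largest rises were in Calb1, Pcp4l1 and Slc35f1, and the largest falls in Pi15, Sprr1a and Fxyd5. The arrays of the groups did not overlap for 538 of the genes that rose (2.70% of all tested) and 589 of those that fell (2.95%). Among all genes tested, passed or not, they did not overlap for 2190 with HRAS+Bmi1 higher (11.0%) and 2333 with it lower (11.7%). When each array was centred on its median instead, 425 rose and 791 fell, so the share of rises among calls was 35.0% rather than 48.6%, with the median difference of all genes at -0.09 rather than -0.01. The count depended on single arrays: 1801 genes passed without HRAS replicate 3, 199 without HRAS+Bmi1 replicate 1 and 324 without HRAS+Bmi1 replicate 2, where the remaining array is assumed to vary like the other groups. In a fit to the 7 arrays alone 533 passed, 395 of them among the 1178, and Bmi1 and 47 of the other genes named here had no call in it, Cdkn2a, Ezh1, Ezh2, Phf1, Igfbp5, Igfbp2, Epha2 and Aqp1 among them. A core of 150 genes, 72 higher and 78 lower, passed in all 7 fits that left out 1 array.

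The largest log2 rise was in Calb1, which encodes the calcium-binding protein calbindin of inhibitory neurons and Purkinje cells. Calb1 was 9.84 and 8.82 in HRAS+Bmi1 and 3.48, 3.57, 3.71, 3.58 and 3.34 in HRAS, a rise of 5.79 (SE 0.302, adjusted p = 5.73e-13). All 30 arrays outside HRAS+Bmi1 lay between 3.18 and 5.24, so the gene was high in the HRAS+Bmi1 arrays and near the floor of the scale in the others. Detection was not assessed, so no fold is given where a group lies below the array medians over all probe sets. The size and rank of such differences depend on that floor. Pcp4l1, a relative of the Purkinje cell protein Pcp4, was 11.45 and 11.28 against 6.53, 5.25, 8.41, 5.13 and 5.50, a rise of 5.20 (SE 0.744, 36.8-fold). HRAS replicate 3 was the highest HRAS array for it and still 2 or more units below HRAS+Bmi1.

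Other large rises were in genes of several roles. Among them were Vgf, a secreted neuropeptide precursor, which rose by 3.90, Gabrg3, a GABA receptor subunit, by 3.54, and Slc35f1, a transporter-like membrane protein of brain, by 4.25. Others were Mlc1, a membrane protein of perivascular astrocyte endfeet, which rose by 3.82, Slc6a11, the GABA transporter GAT-3, by 3.68, and Atp1b1, a sodium pump subunit, by 3.80. Car2, a carbonic anhydrase of glia, rose by 4.10, Cxcl14, a chemokine, by 4.07, Apold1, an endothelial early response gene, by 3.85, and Gpd1, which links glycolysis to lipid synthesis, by 3.58. The calls of Calb1, Pcp4l1, Slc35f1, Cxcl14, Vgf, Gpd1 and Gabrg3 held in all 7 fits without 1 array. Those of Car2 and Atp1b1 were lost without HRAS replicate 4 (adjusted p = 0.0655 and 0.0630) or either HRAS+Bmi1 array (0.181 to 0.294) and that of Atp1b1 also without HRAS replicate 5 (0.0520), Mlc1 without either HRAS+Bmi1 array (0.179 and 0.158), and Apold1 and Slc6a11 without HRAS+Bmi1 replicate 1 (0.105 and 0.0535).

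The largest log2 fall was in Pi15, a secreted protease inhibitor. Pi15 was 3.72 and 3.63 in HRAS+Bmi1 and 7.86, 8.44, 7.89, 10.39 and 8.83 in HRAS, a fall of 5.01 (SE 0.476, adjusted p = 7.65e-08), with the HRAS+Bmi1 values near the floor of the scale. In MYC cells without HRAS it was as low, at 3.53 ± 0.181 (SD, n = 6). Sprr1a, a cornified envelope protein that also rises in injured neurons, fell by 3.86, from 9.74 to 11.14 in HRAS to 6.51 and 6.08. Fxyd5, a sodium pump regulator that loosens cell adhesion, fell by 3.79, from 8.30, 10.40, 9.03, 10.16 and 9.81 to 5.87 and 5.62.

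The other large falls were in genes of several roles. Cd34, a sialomucin of blood and vascular progenitors, fell by 3.79 and Dkk2, a secreted WNT modulator, by 3.65. Cd34 was as low as 5.16 ± 0.509 (SD, n = 6) in MYC cells and at 9.78 ± 0.529 (SD, n = 7) in HRAS+MYC cells. Penk, the enkephalin precursor, fell by 3.61, Ccn3, a matricellular growth regulator, fell by 3.44, and Tmprss11b, an epithelial membrane protease, fell by 3.55. Adh7, an alcohol and retinol dehydrogenase, fell by 3.51, Cpq, a secreted carboxypeptidase, fell by 3.03, and Plscr2, a phospholipid scramblase, fell by 3.06. The transport proteins Aqp1 (a water channel), Slc16a3 (the lactate exporter MCT4) and Slco2a1 (a prostaglandin transporter) had differences of -3.24, -3.09 and -3.06. Of the 15 largest falls all but Penk, Tmprss11b and Slc16a3 passed in all 7 fits without 1 array. Penk was lost without HRAS replicate 4 (adjusted p = 0.108) or 5 (0.0543) and without either HRAS+Bmi1 array (0.264 and 0.322), Tmprss11b and Slc16a3 without either HRAS+Bmi1 array (0.0675 to 0.415).

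**Figure D2:**
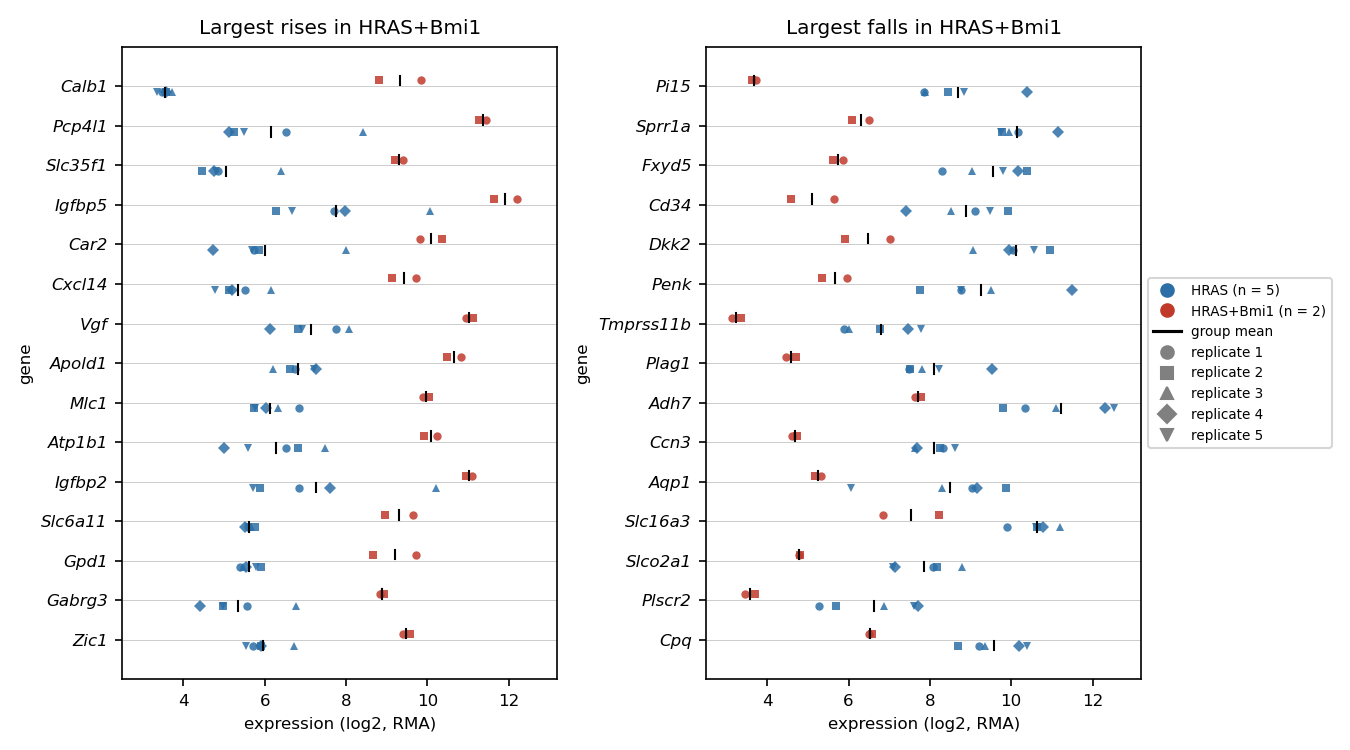
Log2 expression of the 15 genes with the largest rises (left) and the 15 with the largest falls (right), 1 point per array, HRAS in blue and HRAS+Bmi1 in red, with a bar at each group mean. Calb1 lies between 3.34 and 3.71 in all 5 HRAS arrays and at 8.82 and 9.84 in HRAS+Bmi1, and HRAS replicate 3 (triangles) is the HRAS array nearest to HRAS+Bmi1 for Pcp4l1, Slc35f1, Igfbp5, Igfbp2 and Car2.

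The regions before the start sites of the largest riser and the largest faller among the named genes with a promoter entry are given. They are single examples and do not stand for all risers and fallers. RefSeq on GRCm38.p6 places Pcp4l1 on the minus strand after chr1:171196269-171196518 and Sprr1a on the minus strand after chr3:92485882-92486131, and CG dinucleotides are again in capitals.
Pcp4l1: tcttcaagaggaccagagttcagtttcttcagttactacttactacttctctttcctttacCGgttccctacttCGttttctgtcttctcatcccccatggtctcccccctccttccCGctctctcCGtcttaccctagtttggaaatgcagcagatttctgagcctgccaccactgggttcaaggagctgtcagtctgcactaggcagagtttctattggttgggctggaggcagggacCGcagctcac
Sprr1a: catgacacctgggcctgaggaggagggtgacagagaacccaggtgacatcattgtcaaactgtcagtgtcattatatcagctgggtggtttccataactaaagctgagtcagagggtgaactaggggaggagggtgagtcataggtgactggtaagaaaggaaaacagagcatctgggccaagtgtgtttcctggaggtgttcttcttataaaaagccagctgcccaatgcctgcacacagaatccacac
Pcp4l1 has 5 CG dinucleotides in these 250 bases and Sprr1a 0. In the full 300-base windows, which run 50 bases past the start, at least 10 CG dinucleotides occurred in 79.4% of the 436 risers and 86.8% of the 506 fallers with an entry, against 64.3% of the 15614 entries of all genes tested. These sets were not matched for level. The median of the HRAS means was 6.73 for all risers, 8.52 for all fallers and 6.3 for all genes. In HRAS+Bmi1 it was 8.31, 7.39 and 6.39. The part of level in these shares was not tested.

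Some genes of neural stem cells and astrocytes were higher in HRAS+Bmi1. Of 25 neural stem and radial glia genes 4 rose (2.87% of all genes did) and the median difference was 0.42. Prom1, the surface protein CD133, was 8.16 and 8.44 in HRAS+Bmi1 and 4.81, 4.87, 5.07, 4.87 and 5.36 in HRAS. It rose by 3.30 (SE 0.574), and its call held without any single array. Msi1, an RNA-binding protein of neural progenitors, rose by 1.58, the intermediate filament Nes by 1.13 and the transcription factor Sox1 by 1.06. The call of Nes had an adjusted p of 0.0498 and was lost in all fits without 1 array but that without HRAS replicate 3, and those of Msi1 and Sox1 were lost without either HRAS+Bmi1 array (0.0655 to 0.214).

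Of 20 astrocyte genes 4 rose (2.87% of all genes did), 14 had a positive difference (9785 of all 19938 genes did) and the median was 0.69. Apoe, the lipid carrier apolipoprotein E, was 10.31 and 10.32 in HRAS+Bmi1 and 7.81, 7.48, 7.95, 7.36 and 7.15 in HRAS, a rise of 2.77. Clu, the secreted chaperone clusterin, rose by 2.53, Aldh1l1, a folate enzyme used as a pan-astrocyte marker, by 1.89, and Slc4a4, a bicarbonate transporter, by 1.68. The mean level of the 20 genes was 7.99 and 8.09 in HRAS+Bmi1, 7.74 in HRAS replicate 3 and 7.01 to 7.18 in the other HRAS arrays. Aldh1l1 passed without any single array, Clu was lost without HRAS+Bmi1 replicate 1 (adjusted p = 0.140), and Apoe and Slc4a4 without either HRAS+Bmi1 array (0.185 to 0.259).

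Neuronal and oligodendrocyte lists had few or no calls, where 2.87% of all genes rose and 3.04% fell. Of 30 neuronal genes only Dlx1, a homeobox factor of forebrain interneurons, rose, from 7.12, 7.51, 6.10, 5.58 and 6.22 in HRAS to 10.16 and 9.86, by 3.51, a call lost without HRAS+Bmi1 replicate 1 (adjusted p = 0.0943). None of 20 oligodendrocyte lineage genes passed with limma. At an unadjusted p under 0.05, 2 were higher and none lower, where 1817 of all 19938 genes were higher and 1807 lower. Ptprz1, a receptor phosphatase of oligodendrocyte progenitors and the list's largest difference at 3.39 (adjusted p = 0.148), read 8.77 and 8.67 in HRAS+Bmi1, 8.67 in HRAS replicate 3 and 3.61 to 5.99 in the other HRAS arrays. Ncan, a proteoglycan of brain matrix, had the same arrangement, at 9.47 and 9.75 against 8.99 in HRAS replicate 3 and 5.47 to 6.51 in the others, and rose by 3.12, a call lost without either HRAS+Bmi1 array (0.208 and 0.210).

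The Notch pathway, which keeps neural progenitors undifferentiated, had calls in both directions. Among 26 genes 4 rose (2.87% of all genes did) and 3 fell (3.04%). The ligand Dll4 was 9.58 and 8.71 in HRAS+Bmi1 and 6.15, 7.58, 5.60, 5.98 and 5.74 in HRAS, a rise of 2.93. The Notch targets Nrarp, a feedback inhibitor, and Hey1, a transcriptional repressor, rose by 3.02 and 2.79, and Dtx4, an E3 ligase, by 1.22. The receptor Notch4 fell by 1.60 (SE 0.221), from 7.22 to 8.20 in HRAS to 6.12 and 6.24. Rbpj, the DNA-binding partner of the receptors, fell by 1.02 and the inhibitor Numb by 0.52. The mean level of the list was 7.77 and 7.67 in HRAS+Bmi1 and 7.35 to 7.41 in HRAS. Notch4 alone kept its call without any single array, and without HRAS+Bmi1 replicate 1 the adjusted p of Dll4, Hey1 and Nrarp was 0.0722, 0.0625 and 0.0962.

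In the insulin-like growth factor system the largest rises were in binding proteins. Igfbp5 was 12.20 and 11.63 in HRAS+Bmi1 and 7.71, 6.28, 10.06, 7.98 and 6.68 in HRAS, and rose by 4.17 (SE 0.919, 18.1-fold). Igfbp2 was 11.10 and 10.96 against 6.85, 5.88, 10.21, 7.61 and 5.70, and rose by 3.78. HRAS replicate 3 was the highest HRAS array for both of these secreted proteins, which bind the growth factors outside the cell. The ligand Igf1 rose by 1.17 and Igf2r, the receptor that clears Igf2, fell by 0.95. Of the 17 genes 13 did not pass, against 18760 of 19938 among all genes. The call of Igfbp5 was lost without either HRAS+Bmi1 array, that of Igfbp2 without HRAS+Bmi1 replicate 1 and that of Igf1 without HRAS+Bmi1 replicate 2. Igf2r lost its call without HRAS replicate 1, 4 or 5 (adjusted p = 0.0639, 0.0925 and 0.0923) or either HRAS+Bmi1 array.

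Of 35 genes of RAS-MAPK output 5 fell (3.04% of all genes did) and 3 rose (2.87%), with a median difference of -0.12. At an unadjusted p under 0.05 in limma, 9 were lower and 3 higher, where 1807 of all 19938 genes were lower and 1817 higher. The mean level of the list was 8.88 and 8.94 in HRAS+Bmi1 and 9.04 to 9.41 in HRAS, so both HRAS+Bmi1 arrays lay below every HRAS array. The receptor kinase Epha2 was 8.63 and 8.23 in HRAS+Bmi1 and 9.96, 10.76, 9.27, 11.06 and 10.66 in HRAS, and it fell by 1.92. The EGF family ligand Ereg fell by 1.58, the AP-1 subunit Fosl1 by 1.47, the MAP kinase phosphatase Dusp7 by 1.46 and the early response gene Ier3 by 1.40. The phosphatase Dusp2 rose by 1.49, the inhibitor Spred3 by 0.81 and the early growth response factor Egr3 by 0.61. The calls of Epha2 and Fosl1 held without any single array, and the other 6 were lost in at least 1 such fit (highest adjusted p between 0.117 and 0.370).

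Of 39 TGF-β and BMP genes 4 fell (3.04% of all genes did) and none rose in limma. At an unadjusted p under 0.05, 1 was higher and 9 lower, where 1817 of all 19938 genes were higher and 1807 lower. The 4 that fell were the co-receptor Tgfbr3 with a difference of -2.12, the ligand Bmp2 with -1.94, the inhibitor Smad7 with -1.67 and the receptor Tgfbr2 with -1.28. Tgfbr3 was 5.81 and 5.57 in HRAS+Bmi1 and 7.54, 8.49, 7.42, 7.96 and 7.64 in HRAS and kept its call without any single array, while the other 3 lost theirs without either HRAS+Bmi1 array (0.123 to 0.283), Bmp2 also without HRAS replicate 1, 2 or 5 (0.0743 to 0.0824).

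Of 24 hypoxia and glycolysis genes 4 fell (3.04% of all genes did) and 20 had a negative difference (10152 of all 19938 genes did). The median of the list was -0.40. Here the HRAS+Bmi1 arrays differed from each other. The glucose transporter Slc2a1 was 9.65 and 11.13 in HRAS+Bmi1 replicates 1 and 2 and 11.83 to 12.08 in HRAS, and the mitophagy receptor Bnip3 was 7.94 and 10.22 against 10.03, 11.08, 10.64, 11.12 and 10.88. P4ha1, a collagen prolyl hydroxylase, was 9.19 and 10.20 against 10.75 to 11.45. Pdk1, a kinase that inhibits pyruvate dehydrogenase, was 7.39 and 8.92 against 8.98 to 10.04. The differences were -1.55, -1.67, -1.46 and -1.27, and without HRAS+Bmi1 replicate 1 they were -0.81, -0.53, -0.95 and -0.51 with adjusted p of 0.590, 0.898, 0.266 and 0.847. Slc16a3, at 6.84 and 8.22, had the same order of arrays. The calls of Bnip3 and Pdk1 were also lost without HRAS replicate 2 (adjusted p = 0.0721 and 0.0783) or 5 (0.0708 and 0.071). That of Bnip3 was lost without HRAS replicate 4 too (0.0872).

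Of 31 cell cycle and replication genes 3 rose (2.87% of all genes did), 23 had a positive difference, and 12 were higher and 0 lower in limma at an unadjusted p under 0.05. Those that rose were Rrm2, a ribonucleotide reductase subunit, which rose by 1.32, and the replicative helicase subunits Mcm5 by 1.09 and Mcm2 by 1.03. Mcm5 was 9.92 and 9.61 in HRAS+Bmi1 and 8.61, 8.42, 9.54, 8.32 and 8.48 in HRAS, with HRAS replicate 3 close to HRAS+Bmi1. Of 27 ribosome biogenesis genes 2 rose, Nle1 by 1.01 and Fbl, the nucleolar methyltransferase fibrillarin, by 0.73, and 23 had a positive difference. All 5 calls were lost without either HRAS+Bmi1 array. Those of Mcm5 and Mcm2 were also lost without HRAS replicate 4 (adjusted p = 0.0753 and 0.0674) or 5 (0.062 and 0.0613). That of Mcm5 was lost without HRAS replicate 2 too (0.06), and that of Fbl without HRAS replicate 4 (0.0524). Of 23 p53 target genes Aen and Ei24 rose, by 0.66 and 0.59, with adjusted p of 0.0454 and 0.0480, and both were lost in most fits without 1 array (0.0513 to 0.460). The other p53 targets leaned the other way: 16 of the 23 had a negative difference, the median was -0.11, and the mean level was 7.60 in both HRAS+Bmi1 arrays and 7.68 to 7.85 in HRAS. For comparison with these 3 lists, 2.87% of all 19938 genes rose, 9785 had a positive difference and 10152 a negative one. At an unadjusted p under 0.05 in limma, 1817 of all genes were higher and 1807 lower.

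The remaining lists had few calls, read here against 2.87% higher and 3.04% lower among all genes. Of all 19938 genes, 10152 had a negative difference, and 1817 were higher and 1807 lower in limma at an unadjusted p under 0.05. Of 31 mesenchymal and matrix genes the collagen Col5a2 rose by 1.54 and Tgfbi and the integrin Itga5 fell by 2.01 and 1.63, calls that were lost without either HRAS+Bmi1 array (0.0974 to 0.234). Of 55 WNT genes Fzd6, a receptor, and Apc, of the β-catenin destruction complex, rose by 1.81 and 1.01, and Dkk2 fell. None of 15 SHH pathway genes passed with limma (3 had an unadjusted p under 0.05, all higher), although Hhip, a hedgehog inhibitor, was 6.34 and 7.32 against 4.23 to 5.19 (adjusted p = 0.0517). None of 24 interferon response genes passed with limma (8 had an unadjusted p under 0.05, all lower), while 22 had a negative difference and the HRAS arrays ranged widely, with a mean level of the list from 5.88 to 8.17 against 6.24 and 6.54 in HRAS+Bmi1. Rtp4, its largest difference, read 6.64 and 6.32 against 8.50, 5.50, 7.89, 10.05 and 7.11. Of 13 class I antigen presentation genes Tapbp fell by 1.24. Fzd6 was lost without HRAS+Bmi1 replicate 1 (0.278), Apc without either HRAS+Bmi1 array (0.421 and 0.0585) and Tapbp likewise (0.154 and 0.225).

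Lists of cells other than neural ones held 8 calls, read here against 2.87% higher and 3.04% lower among all genes. Of the microglial genes Cd68, a lysosomal protein also found outside macrophages, fell by 2.29, from 8.58, 9.68, 6.86, 9.22 and 11.21 in HRAS to 6.38 and 7.25. Of the endothelial genes the VEGF receptor Flt1 rose by 2.05 and the peptidase Anpep fell by 1.73, and of the ependymal and choroid plexus genes Ttr rose by 0.82, to 4.72 and 4.50, and Aqp1 fell. Of 21 smooth muscle and epithelial genes the contractile genes Myl9, Des and Tpm2 rose by 2.07, 1.77 and 1.02. The mean level of the microglial list was 4.94 and 4.89 in HRAS+Bmi1 and 4.70 to 5.40 in HRAS, and that of the endothelial list 5.31 and 5.25 against 5.23 to 5.56. Among these calls, those of Des and Aqp1 held without any single array. Cd68, Flt1, Anpep, Myl9, Tpm2 and Ttr were lost without HRAS+Bmi1 replicate 1, and Cd68, Flt1, Anpep and Tpm2 also without HRAS+Bmi1 replicate 2. Cd68 was lost as well without HRAS replicate 2, 4 or 5 (adjusted p = 0.0799, 0.0786 and 0.099). Tpm2 was lost as well without HRAS replicate 1, 2 or 5 (0.088, 0.0928 and 0.0537).

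Where the genes that changed lie in the genome was uneven. On chromosome 16, 78 of 649 genes fell (12%) and 3 rose, and on chromosome 4, 107 of 1161 fell (9.22%) and 15 rose. On the other 18 chromosomes between 1.14% and 4.42% fell. Together chromosomes 4 and 16 held 185 of the 606 falls, or 30.5%, and 9.08% of the genes tested. With the genes of these chromosomes set aside, 919 genes passed, 516 higher and 403 lower. DNA copy number was not measured in these data.

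**Figure D3:**
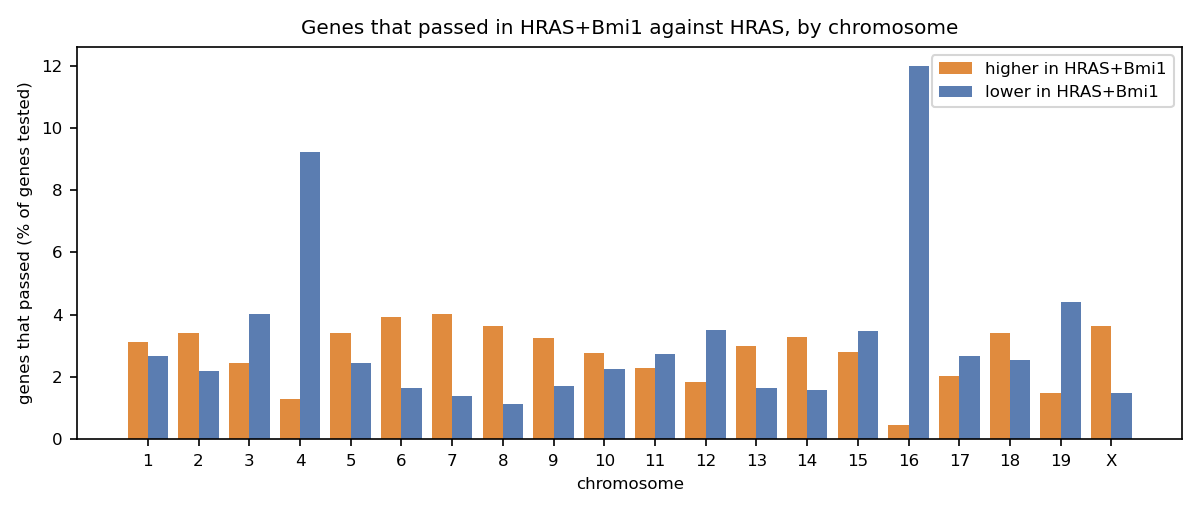
Percent of the genes tested on each chromosome that passed as higher (orange) or lower (blue) in HRAS+Bmi1 against HRAS. The lower bars of chromosomes 16 (12%) and 4 (9.22%) exceed those of the other 18 chromosomes, which lie between 1.14% and 4.42%.

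The shift could be followed in single arrays over 5764 expressed genes, those with a mean of at least 8, as the median deviation from each gene's median over all 32 arrays. The chromosome 16 genes lay at -0.63 and -0.58 in HRAS+Bmi1, at -0.29 in HRAS replicate 3, at -0.17 in replicate 4 and at 0.05, 0.04 and -0.05 in replicates 1, 2 and 5. The chromosome 4 genes lay at -0.36 and -0.39 in HRAS+Bmi1, at -0.25 in HRAS replicate 3 and at 0.01, 0.03, 0.14 and -0.10 in replicates 1, 2, 4 and 5. On the other 18 chromosomes the HRAS+Bmi1 arrays lay between -0.07 and 0.13. HRAS replicate 3 thus shared the direction of both shifts, at a smaller size in these medians of whole chromosomes. Outside these 7 arrays chromosome 16 was no lower than -0.20, in MYC+Bmi1 replicate 2, and chromosome 4 reached -0.43 in MYC replicate 4. Single HRAS and MYC arrays had shifts of like size on other chromosomes. Chromosome 18 lay at 0.43 in HRAS replicate 3 and -0.25 in HRAS replicate 2, and chromosome 3 at 0.38 in HRAS replicate 4. Chromosome 14 lay at -0.69 and -0.53 in MYC replicates 4 and 5.

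On chromosome 4 the low levels did not span the whole chromosome. In windows of 20 consecutive expressed genes, the first 5, from Tmem68 to Pole3, lay between -0.03 and 0.29 in the HRAS+Bmi1 arrays, and the following 12, from Atp6v1g1 to Agrn at the far end, between -0.74 and -0.30. Cdkn2a and Cdkn2b fell into the sixth window, at -0.69 and -0.51 in HRAS+Bmi1, where HRAS arrays lay between 0.01 and 0.56. HRAS replicate 3 was at 0.15 in that window and between -0.62 and -0.16 in the 11 after it. In window 7 it was less low than HRAS+Bmi1, at -0.30 against -0.69 and -0.60. Nearer the far end it was about as low in some windows, at -0.44 against -0.38 and -0.46 in window 11 and at -0.49 against -0.43 and -0.43 in window 17. On chromosome 16 all 9 windows were low in HRAS+Bmi1, from -0.79 to -0.38. HRAS replicate 3 lay between -0.48 and -0.14 there, and HRAS replicate 4 reached -0.70 in the third window. Scmh1, Slc2a1 and Epha2, named above as lower, also lie on chromosome 4, and the part of the chromosome-wide shift in their differences and in that of Cdkn2a was not tested.

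**Figure D4:**
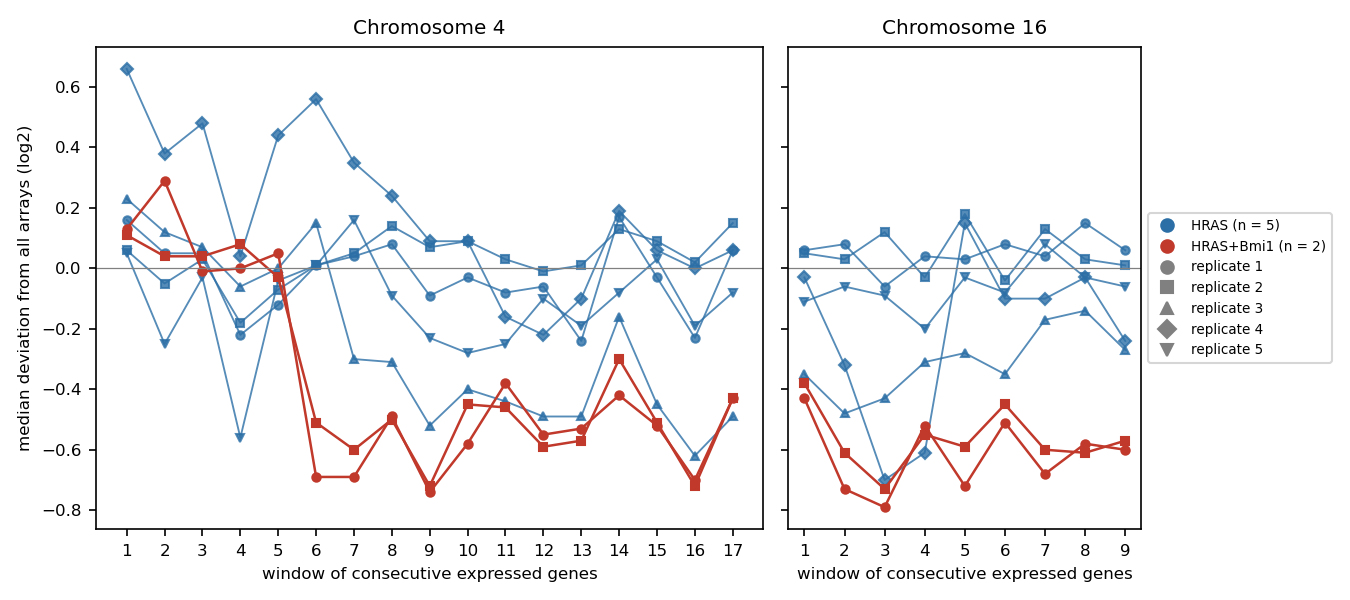
Median deviation (log2) of windows of 20 or more consecutive expressed genes along chromosomes 4 and 16 in each HRAS (blue) and HRAS+Bmi1 (red) array, in gene order. On chromosome 4 the HRAS+Bmi1 lines drop after window 5 and stay between -0.74 and -0.30, and on chromosome 16 they are low from the first window to the last.

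Near the start of chromosome 4, before that drop, Plag1 and Chchd7 fell together. Plag1, a zinc finger factor of growth control, was 4.47 and 4.71 in HRAS+Bmi1 and 7.48, 7.52, 7.80, 9.53 and 8.23 in HRAS, a fall of 3.52 (SE 0.328). Chchd7, its neighbour, was 7.44 and 7.48 against 9.42, 9.18, 9.62, 10.36 and 9.47, a difference of -2.15 (SE 0.245, 4.44-fold). HRAS replicate 4 was the highest array for both and for Penk, and the first window of the chromosome lay at 0.66 in that array. Both calls held without any single array.

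Some genes were lower or higher in HRAS+Bmi1 than in any other cells of the study. Both HRAS+Bmi1 arrays lay below all 30 other arrays for 311 genes (1.56% of those tested), 120 of which passed, and 76 of these 120 were on chromosomes 4 and 16. Both lay above all other arrays for 338 genes (1.70%), 190 of which passed. These included Calb1, Pcp4l1, Vgf, Gabrg3, Igfbp5, Igfbp2, Hey1 and Nes. Ezh1, at 6.90 and 6.93, and Smad7, at 6.54 and 6.46, were below every other array, whose lowest values were 7.03 and 6.69.

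The study also added Bmi1 to MYC cells, which allowed the effect of Bmi1 to be compared between oncogenic backgrounds that share no array. These were tumours of p53-deficient cells of the same strain given MYC, or MYC and Bmi1. In MYC cells, 3 MYC+Bmi1 arrays against 6 MYC arrays, 30 genes passed (0.150%), 20 higher (0.100%) and 10 lower (0.0502%). The effects differed between the backgrounds in 485 genes (2.43%) by a test of the difference itself, 266 more positive in HRAS cells (1.33%) and 219 more negative (1.10%), and 411 of the 1178 genes that passed in HRAS cells (34.9%) were among them. That test passed 1099 genes without HRAS replicate 3, 98 and 126 without HRAS+Bmi1 replicate 1 and 2, 736 without MYC replicate 6 and 202 without MYC+Bmi1 replicate 3. The count in MYC cells ranged from 9 to 234 without 1 array, the highest without MYC+Bmi1 replicate 1 and the lowest without MYC+Bmi1 replicate 3. It was 17, 51 and 84 without MYC replicate 1, 4 and 6, and was 1 in a fit to these groups alone. Bmi1 itself rose by 0.89 in HRAS cells and differed by 0.24 (SE 0.190, adjusted p = 0.668) in MYC cells, a contrast whose own adjusted p was 0.253.

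A single gene passed in both backgrounds, 3.33% of the MYC calls and 0.0849% of the HRAS calls. It was Mdk, the growth factor midkine, named after its values were seen, which rose by 0.69 (SE 0.175) in HRAS cells and by 0.78 (SE 0.148) in MYC cells. Mdk was 6.51 and 6.24 in HRAS+Bmi1 and 5.97, 5.64, 5.28, 5.86 and 5.69 in HRAS, and its call was lost without either HRAS+Bmi1 array (adjusted p = 0.376 and 0.0716). Of the 572 genes that rose in HRAS cells 289 had a negative difference in MYC cells, and of the 606 that fell 273 had a positive one. The median difference in MYC cells was -0.00 for the genes that rose, -0.03 for those that fell and 0.02 for all genes. The signs of all genes in MYC cells were not counted, so nothing is read from these counts.

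The largest contrasts between the backgrounds were in genes that moved in HRAS cells. Calb1 differed by 0.30 (SE 0.255) and Pi15 by 0.07 (SE 0.402) in MYC cells, where both stayed near the floor of the scale, and the differences between effects were 5.49 and -5.08. A fall of Pi15 could not have been read in MYC cells. Mlc1, Adgrb3 (an adhesion receptor of synapses) and Ncan had opposite signs, at 3.82, 2.98 and 3.12 in HRAS cells and -1.62, -2.23 and -1.55 in MYC cells, with adjusted p of 0.0169, 0.00237 and 0.0191 for the contrast. None of these 3 genes passed in MYC cells alone (0.129 to 0.434), and their calls in HRAS cells were all lost without either HRAS+Bmi1 array (0.155 to 0.210). Cdkn2a fell by 0.95 in HRAS cells and differed by 0.24 in MYC cells (adjusted p of the contrast 0.0194). Cdkn2c passed the contrast as well (0.0403), with 0.51 in HRAS and -1.94 in MYC cells, neither of which passed alone. Commd3, the gene just before Bmi1 on chromosome 2 and also named after its values were seen, differed by 0.03 in HRAS cells and fell by 2.22 (SE 0.426) in MYC+Bmi1, where its SD of 2.07 over 3 arrays was far above the 0.203 of MYC.

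**Figure D5:**
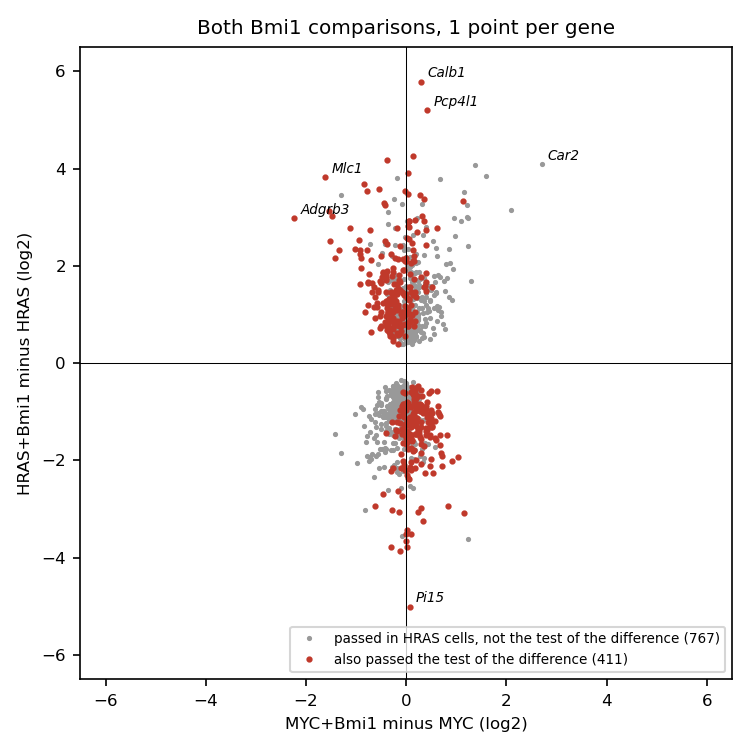
Log2 difference for each gene that passed in HRAS+Bmi1 against HRAS (vertical axis) and its difference in MYC+Bmi1 against MYC (horizontal axis), with genes that also passed the test of the difference in red (411 genes). Calb1, at 5.79 and 0.30, and Pi15, at -5.01 and 0.07, lie close to the vertical axis, and Mlc1 and Adgrb3 are higher with Bmi1 in HRAS cells and have negative differences in MYC cells.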

How the data were processed

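Each sample, RNA of mouse tumour neurospheres, was read on its own Mouse Gene 1.0 ST array. The authors deposited log2 values for probe sets. RMA and Expression Console 1.0 are named in the submitters' processing notes, and the log2 scale was read from the values. RMA gives all arrays like distributions, so a global change in RNA would not be seen. No detection values were used here, so the number of arrays limits the precision.

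Of 35557 probe sets, 21789 were given 1 gene symbol by GEO's annotation of the platform, 1621 carried more than 1 and 12147 none. Where a gene had several, the probe set of highest mean was kept, which left 19938 genes. Genes without such a probe set, Hras among them, were not analysed here. RefSeq tables of GRCm38.p6 gave chromosomes, gene order and promoters.

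All 32 arrays entered a linear model of 8 group means in limma 3.58.1 (R 4.3.3), so that small groups borrow the spread of the others. Adjusted p-values are 2-sided, moderated with eBayes and Benjamini-Hochberg adjusted over all genes, and a gene passed under 0.05. Differences are log2 with the standard error of the fit. The fit was tested on simulated data. Alternatives changed the arrays fitted, the probe set choice, the filter, the variance model, the scaling and the weights, added a replicate block or left out 1 array.

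The members and lists were chosen with earlier results of these data known. Genes named were Bmi1, the 15 largest rises and 15 largest falls among genes that passed without overlap, up to 4 largest passed members of each list (1 where none passed), the Polycomb and CDK inhibitor genes, and the 6 largest contrasts between backgrounds. The rule skipped gene models without a name, large receptor families, small RNAs and sex chromosome markers. Zic2, Zic4, Zic5, Chchd7, Dtx4, Rbpj, Numb, Dusp7, Ier3, Spred3, Egr3, Mdk, Commd3, Myc and the glioma markers Gfap, S100b, Olig2, Vim and Sox2 were named after their values were seen.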

Additional observations from a re-analysis of the deposited data

Results flagged for a closer look

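Among 113 genes named, 53 had a Bmi1 effect that differed between HRAS and MYC cells by the limma test of the difference itself. Among all genes 485 did (2.43%), and the named genes were chosen for large changes in HRAS cells or large contrasts, so nothing is read from their count. The effect of Bmi1 was more positive in HRAS than in MYC cells, in log2 units, for Calb1 (5.49), Mlc1 (5.44), Adgrb3 (5.21), Pcp4l1 (4.78), Ncan (4.67), Igfbp5 (4.56), Slc6a11 (4.52), Nrarp (4.50) and Zic1 (4.33). Smaller positive contrasts were found for Slc35f1 (4.13), Gpd1 (4.13), Apoe (3.89), Vgf (3.87), Prom1 (3.74), Gabrg3 (3.57), Clu (3.47), Dll4 (2.89) and Cdkn2c (2.45). The remaining positive contrasts were those of Aldh1l1 (2.27), Slc4a4 (2.20), Col5a2 (1.72), Dtx4 (1.53), Des (1.47), Igf1 (1.35) and Nle1 (1.31).

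It was more negative in HRAS cells for Pi15 (-5.08), Slc16a3 (-4.25), Fxyd5 (-3.80), Sprr1a (-3.73), Dkk2 (-3.63), Plag1 (-3.61), Aqp1 (-3.57), Adh7 (-3.51), Cd34 (-3.48) and Ccn3 (-3.46). Further negative contrasts were found for Plscr2 (-3.30), Tgfbi (-2.93), Slco2a1 (-2.91), Cpq (-2.74), Epha2 (-2.64), Tgfbr3 (-2.59), Smad7 (-1.98), Chchd7 (-1.88), Fosl1 (-1.85) and Notch4 (-1.72). The smallest negative contrasts were those of Ereg (-1.69), Pax9 (-1.66), Dusp7 (-1.54), P4ha1 (-1.37), Ezh1 (-1.33), Scmh1 (-1.22), Cdkn2a (-1.19) and Phf1 (-0.96). The mean in MYC cells was already below the array medians over all probe sets for Pi15 (3.53), Plscr2 (3.28), Plag1 (4.24), Ereg (4.63), Ccn3 (4.65), Dkk2 (4.86) and Cpq (4.86). It was also below them for Fxyd5 (4.99), Adh7 (5.0), Cd34 (5.16), Sprr1a (5.28), Aqp1 (5.4), Fosl1 (5.45), Epha2 (5.47), Notch4 (5.53) and Pax9 (5.54). For all of these a fall with Bmi1 could hardly, or only in part, have been read in MYC cells.

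In 5 of the named genes 1 of the 5 HRAS arrays stood far from the other 4, where chance gives about 1 in 20. HRAS replicate 2 was low for Cdkn2c at 7.53 and high for Dll4 at 7.58. HRAS replicate 3, the array most like HRAS+Bmi1, was high for Slc35f1 at 6.41 and Mcm5 at 9.54 and low for Six3 at 6.34. In the last 3 it lay on the side of HRAS+Bmi1.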

How the results depend on the processing

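Of 1178 genes between HRAS+Bmi1 and HRAS (572 higher, 606 lower), array weights passed 3460 (1805 and 1655), a fit to the groups compared alone 533 (278 and 255) and a replicate block 2671 (1388 and 1283). The replicate block joins samples that share only a number: deviations from the group means of HRAS+Bmi1 and HRAS arrays with equal numbers correlated at -0.009 and 0.022 across genes. Leaving out 1 array gave 199 to 1801 genes (102 to 951 higher, 97 to 850 lower). Outside chromosomes 4 and 16, a restriction chosen after seeing the data that tests fewer genes, 403 genes were lower. Median centring, a trended robust variance, a filter at a mean of 6 and the mean of probe sets kept the total within 1.5 times.

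For MYC+Bmi1 against MYC, 30 genes became 61 with array weights, 19 with the filter, 1 with the groups alone, 0 with the replicate block in limma (2200 at an unadjusted p under 0.05, against 2315 without the block) and 9 to 234 without 1 array. The contrast between backgrounds went from 485 genes to 1711 with array weights, 135 with the groups alone, 122 with the replicate block and 98 to 1099 without 1 array.

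The Bmi1 difference of 0.89 kept its size but not its call with the groups alone, and ranged from 0.58 to 1.21 without 1 array. Of the 100 named genes that passed, 30 passed in every fit without 1 array; 69 had no call without HRAS+Bmi1 replicate 1, 51 without HRAS+Bmi1 replicate 2, and Bmi1 and 47 others with the groups alone. Genes with no call changed sign: Cdkn2b (0.19) to -0.07 with array weights, -0.78 with the replicate block and -0.07 to 0.47 without 1 array, Cdkn1c (0.33) to -0.03, -0.63 and -0.07 to 0.61, Cdkn2d (-0.37) to 0.01 with the block, and Commd3 (0.03) to -0.06 with centring and -0.15 to 0.20 without 1 array. The cause of these changes was not tested. With 2 HRAS+Bmi1 arrays, leaving out 1 leaves a lone array that is assumed to vary like the other groups.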
